A study of Mus musculus with 18 samples.

Results

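CFU-E are erythroid progenitors of the bone marrow, and the comparison described here set CFU-E of mice with the gene for stem cell factor (SCF, written Scf in the labels) deleted in Lepr-Cre stroma against CFU-E of floxed controls. The Lepr-Cre mice carried a null copy and a floxed copy of Scf together with Cre expressed from the leptin receptor locus, which in adult marrow is active in perivascular stromal cells. Such a model removes SCF from the cells that express Cre and leaves it in others, endothelium among them. The FL/FL mice carried floxed copies of Scf without Cre, so the contrast joins the null copy, present in every cell of the mouse, to the deletion in Lepr-Cre stroma. KO/FL mice, with the null and the floxed copy and no Cre, are given between both groups where their values bear on a gene. Each group held 3 mice of separate identity, lettered A, B and C, with females at letter B and males at A and C. Each mouse gave its CFU-E and its PreCFU-E, and no age is among the labels used here. The comparison takes 6 of the 18 libraries of the series, beside 3 KO/FL libraries of CFU-E, and 10192 of 21967 genes in the table passed the filter on low counts and were tested. Libraries were made from 5000 to 10000 cells sorted out of c-Kit-enriched marrow, with total RNA read by a strand-marking kit for small inputs.

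SCF, encoded by Kitl, is displayed or shed by marrow stroma and binds the receptor tyrosine kinase KIT on progenitors. KIT passes the signal through adaptor proteins to RAS and ERK, whose targets include the Sprouty, SPRED and DUSP proteins that restrain the same cascade, and to PI3 kinase. CFU-E depend on KIT and on erythropoietin, a hormone of the kidney that acts through the erythropoietin receptor, JAK2 and the transcription factor STAT5, and they then switch on haem synthesis, globin and membrane skeleton genes as KIT is lost.

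The 6 libraries held 5460920 to 8728954 counts, and between 10782 and 12381 genes had a count. Kitl (ENSMUSG00000019966.18, chromosome 10, 100015630 to 100100416, plus strand, GRCm38) had 0 counts in all 6, so the deletion in the stroma cannot be checked in these cells. The 10 genes listed as marking CFU-E were all detected, summed to 5754 to 5941 CPM in Lepr-Cre and to 5826 to 6499 CPM in FL/FL libraries, and 0 of them were called by edgeR (5 at an unadjusted p under 0.05 and 0 by DESeq2), although 2, Tfrc and Rhag, were called higher when the replicate letter was entered as a block. Over all 10192 tested genes, 1973 had an unadjusted p under 0.05, and such counts of lists are to be read against that. CPM scale a gene's count by the total of its library. Lepr-Cre B stood apart: it detected the fewest genes, 10782, had 0 counts in 41 of 1225 genes of middling level (3 to 10 CPM) where the other 8 libraries of CFU-E had 0 to 6, and lay at -51.7 on a first principal component (29.3% of the variance) that held the other Lepr-Cre libraries at -17.7 and -18.5 and the FL/FL libraries at 16.8 to 25.8. Counts of gene lists, or the calls lost, are therefore given without it where they change. In bulk RNA, fewer cells of a kind and less RNA per cell cannot be told apart, and p-values measure the spread between these mice.

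In CFU-E of Lepr-Cre mice, 7 of 15 genes of the erythropoietin and STAT5 list were called higher, 6 of 18 of the ERK list lower, and 10 of 29 of the serine, folate and ATF4 list higher by mostly smaller factors. Of 4 tested globins and 19 haem synthesis genes 1 each was called, both higher. All lists were chosen with earlier results of these data known, so their counts describe the data and test nothing. edgeR called 492 genes at an adjusted p under 0.05, 4.83% of those tested. Of these 212 were higher in Lepr-Cre mice (2.08%) and 280 lower (2.75%). The median called rise was 0.69 and the median called fall -0.84 on the log2 scale, against a median of 0.00 over all tested genes. More than 2-fold changes made up 70 of the rises and 109 of the falls, and more than 4-fold changes 39 and 37. In 22.4% of tested genes, 11.1% higher and 11.4% lower, the Lepr-Cre libraries lay wholly to one side of the FL/FL libraries, and 486 of the 492 called genes were among them. A fit with the letter as a block, called the block from here on, gave 933 genes, 439 higher (4.31%) and 494 lower (4.85%), with all 492 among them. Without Lepr-Cre B 124 were higher (1.19%) and 223 lower (2.13%). Without FL/FL A the count was 221, and without FL/FL B 246. By limma on log2(RPKM + 0.1) it was 194, with 64 higher and 130 lower (33.0% higher, against 43.1% in the edgeR fit), and by DESeq2 755.

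**Figure D1:**
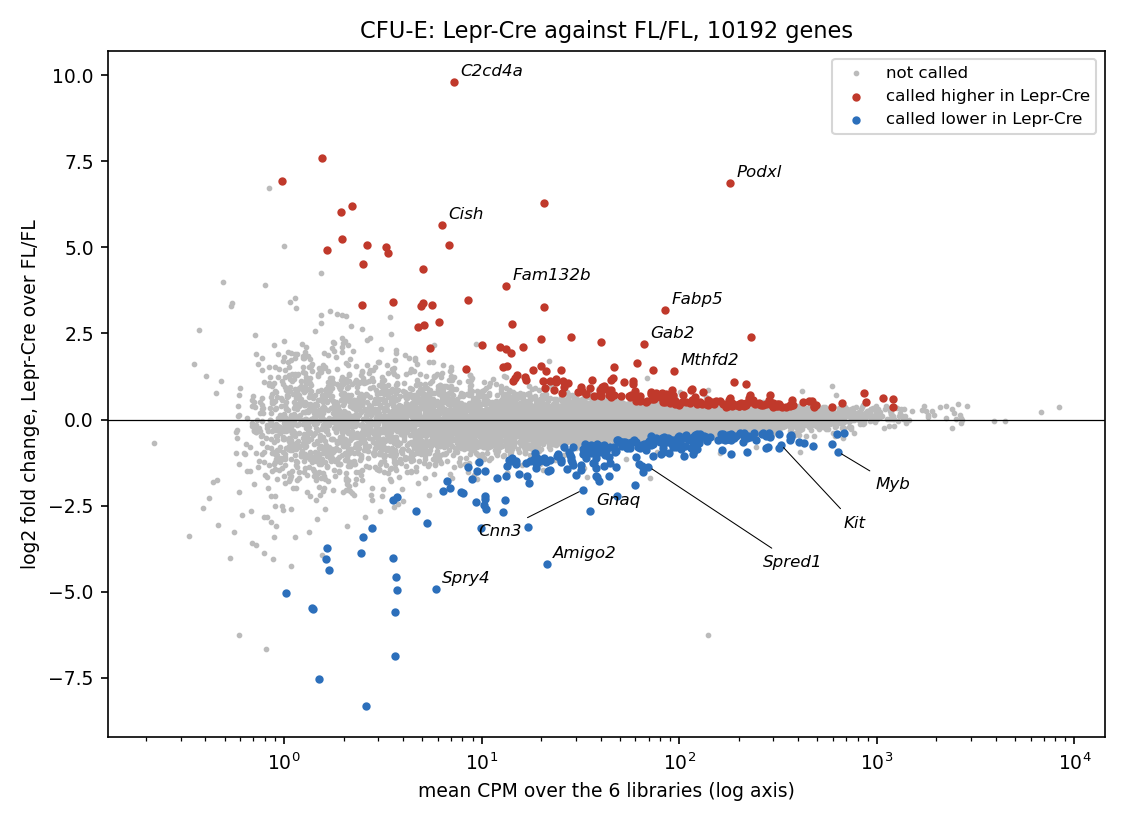
Log2 fold change of Lepr-Cre over FL/FL (vertical axis) against the mean CPM of the 6 libraries (horizontal, log axis) for 10192 genes, with 212 called rises in red and 280 called falls in blue. Podxl and Fabp5 combine a large rise with a high level, while Kit and Myb are well-expressed genes with falls below 2-fold.

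Kit itself, the receptor of SCF (ENSMUSG00000005672.12, chromosome 5, 75574916 to 75656722, plus strand), was lower. It stood at 298, 229 and 210.1 CPM in Lepr-Cre A, B and C, at 355, 442 and 319.6 CPM in KO/FL A, B and C, and at 462, 357 and 402 CPM in FL/FL A, B and C. Lepr-Cre and FL/FL libraries did not overlap, and Lepr-Cre A was the nearest to the controls. The means were 245 ± 46.1 CPM in Lepr-Cre and 407 ± 52.7 CPM in FL/FL CFU-E (log2 fold change -0.73, SE 0.14, adjusted p = 0.00539, from 3 mice a group). By limma on log2(RPKM + 1) Kit did not pass (adjusted p = 0.0688). The cells came from c-Kit-enriched marrow, so KIT was part of how they were selected. The bearing of that selection on the Kit difference was not tested. Among the other 22 tested genes of the KIT receptor and its adaptors, 2 rose and 1 fell, and the median of the 23 was -0.02. Gab2, a docking adaptor that recruits PI3 kinase and SHP2, had 115, 103 and 108 CPM in Lepr-Cre against 70.8, 37.6 and 39.7 CPM in KO/FL and 33.1, 24.6 and 14.4 CPM in FL/FL libraries (log2 fold change 2.19, SE 0.29, adjusted p = 0.00083). Each Lepr-Cre library was above each of the other 6. Pik3cd, a catalytic subunit of PI3 kinase, rose by 1.15 on the log2 scale, with a mean of 49.9 ± 13.3 CPM in Lepr-Cre against 22.4 ± 3.63 CPM in FL/FL mice (adjusted p = 0.00271). Cblb, an E3 ubiquitin ligase that marks activated receptors for removal, fell by 0.84 on the log2 scale (adjusted p = 0.00925), but not past the threshold without FL/FL B (adjusted p = 0.0612). The remaining adaptors, Grb2, Sos1, Shc1 and the phosphatases Ptpn6 and Ptpn11 among them, were not called, with the related adaptor Gab1 at 0.18 (adjusted p = 0.585).

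Of 18 tested ERK feedback and immediate-early genes 6 fell and 0 rose, while 12 did not pass and 6 lay above 0. The median was -0.76 against 0.00 for all genes, and set against the FL/FL mean it was -0.17 in Lepr-Cre A, -0.59 in B and -1.01 in C. Spry4, a Sprouty protein that blocks RAS activation, had 4, 0 and 4 counts in Lepr-Cre, 56, 69 and 27 in KO/FL and 66, 104 and 90 in FL/FL A, B and C. Its level was 0.469, 0 and 0.582 CPM in Lepr-Cre, 6.24, 7.68 and 3.86 CPM in KO/FL and 11.6, 12 and 10.5 CPM in FL/FL libraries (log2 fold change -4.92, SE 0.65, adjusted p = 8.52e-05). The 3 genotypes did not overlap, and KO/FL libraries fell between the others. Spred1, a membrane-bound inhibitor of RAS to RAF signalling, had 42.3, 39.7 and 34.9 CPM in Lepr-Cre, 102, 90.4 and 72 CPM in KO/FL and 103, 111 and 87.8 CPM in FL/FL libraries (log2 fold change -1.37, SE 0.16, adjusted p = 2.27e-05). Here the KO/FL range overlapped that of FL/FL mice and both lay above Lepr-Cre. Its relative Spred2 averaged 36.5 ± 12.3 CPM in Lepr-Cre and 89.1 ± 9.57 CPM in FL/FL mice (log2 fold change -1.28, adjusted p = 0.000687). Etv5, an ETS transcription factor induced by receptor tyrosine kinases, averaged 1.16 ± 0.752 CPM in Lepr-Cre and 9.4 ± 1.52 CPM in FL/FL mice (log2 fold change -3.0, adjusted p = 0.0040). Dusp6, a phosphatase that inactivates ERK, had 7, 0 and 0 counts in Lepr-Cre libraries, 15, 36 and 13 in KO/FL and 24, 46 and 37 in FL/FL libraries (log2 fold change -3.88, SE 1.02, adjusted p = 0.0276). Ccnd1, the cyclin D1 gene, had 0, 0 and 6 counts in Lepr-Cre, 11, 21 and 0 in KO/FL and 71, 37 and 39 in FL/FL libraries (adjusted p = 0.0326). In both genes each Lepr-Cre library lay below each FL/FL library, but on few counts. Dusp6 did not pass without Lepr-Cre B or C, or FL/FL A or B (adjusted p up to 0.112), nor Ccnd1 without Lepr-Cre A or B, or FL/FL A or B (adjusted p up to 0.208) or with DESeq2 (0.105). Of the immediate-early genes none was among the 6. Egr1, a zinc finger factor, had 2.93, 0.601 and 1.16 CPM in Lepr-Cre against 1.58, 5.77 and 2.58 CPM in FL/FL libraries, which overlapped. Junb, an AP-1 subunit, lay at 0.88 (adjusted p = 0.0609) and was called higher without Lepr-Cre B (0.0297) and with the block (0.0412), so the list had 1 rise and 4 falls in the first case and 1 and 6 in the second.

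The erythropoietin and STAT5 list moved the other way, with 7 of 15 tested genes higher and 1 lower, a median of 0.49, and the same counts without Lepr-Cre B. Set against the FL/FL mean the list median was 1.26 in Lepr-Cre A, -0.09 in B and 0.37 in C, so it was not above 0 in B. Cish, a SOCS-family inhibitor that STAT5 induces as feedback (ENSMUSG00000032578.7, chromosome 9, 107296026 to 107302784, plus strand), had 100, 95 and 76 counts in Lepr-Cre, 16, 4 and 19 in KO/FL and 4, 0 and 1 in FL/FL A, B and C. In CPM it averaged 12.4 ± 1.69 in Lepr-Cre and 0.274 ± 0.377 in FL/FL mice (log2 fold change 5.64, SE 0.86, adjusted p = 0.000369). Pim1, a kinase that STAT5 induces, had 81.2, 65 and 62.1 CPM in Lepr-Cre, 34.6, 29.6 and 38 CPM in KO/FL and 20.4, 31.3 and 20.7 CPM in FL/FL libraries (log2 fold change 1.52, SE 0.20, adjusted p = 8.61e-05). For both genes every Lepr-Cre library lay above the KO/FL and FL/FL libraries. Fam132b, the erythroferrone gene through which erythroblasts lower liver hepcidin, had 19, 34.7 and 20.8 CPM in Lepr-Cre, 7.47, 4.12 and 5.14 CPM in KO/FL and 1.94, 2.77 and 0.351 CPM in FL/FL libraries (log2 fold change 3.88, SE 0.50, adjusted p = 8.52e-05). Osm, the cytokine oncostatin M, averaged 20.1 ± 1.91 CPM in Lepr-Cre and 4.69 ± 1.28 CPM in FL/FL mice (log2 fold change 2.11, adjusted p = 0.00131). Ccnd2, the cyclin D2 gene, averaged 258 ± 32.8 CPM in Lepr-Cre and 121 ± 12.3 CPM in FL/FL mice (log2 fold change 1.09, adjusted p = 0.00103). Socs2, another SOCS-family inhibitor, had 41, 22 and 24 counts in Lepr-Cre and 0, 0 and 2 in FL/FL libraries, a ratio of 45.2 with a counting interval of 12.1 to 379. It did not pass without Lepr-Cre A or C, or FL/FL A or B (adjusted p up to 0.146). Podxl, described below, was the remaining rise of the list. The receptor gene Epor (-0.13, adjusted p = 0.651) and the factor genes Stat5a (-0.16, 0.469) and Stat5b (-0.32, 0.148) were not called. The block gave 7 rises and 3 falls, with the pseudokinase gene Trib2 (adjusted p = 0.0190) and Stat5b (0.0476) added as falls. Jak2, the kinase between them, was lower, at 126, 157 and 145 CPM in Lepr-Cre against 188, 187 and 197 CPM in FL/FL libraries (log2 fold change -0.42, SE 0.11, adjusted p = 0.0332). Jak2 did not pass without Lepr-Cre A or C, or FL/FL A, B or C (adjusted p up to 0.13).

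Podxl had the highest level among the 12 largest rises. It encodes podocalyxin, a sialomucin of the cell surface also found on stem cells and erythroid progenitors (ENSMUSG00000025608.9, chromosome 6, 31519488 to 31563981, minus strand). Its level was 358, 419.6 and 303 CPM in Lepr-Cre A, B and C, 54.1, 8.9 and 18.6 CPM in KO/FL A, B and C and 1.94, 4.5 and 2.46 CPM in FL/FL A, B and C. The 3 genotypes did not overlap, and the KO/FL libraries spread about 6-fold among themselves. Lepr-Cre mice averaged 360.2 ± 58.5 CPM and FL/FL mice 2.96 ± 1.36 CPM (log2 fold change 6.87, SE 0.81, adjusted p = 0.00763). Against KO/FL mice the difference of 3.72 did not pass (adjusted p = 0.0687).

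**Figure D2:**
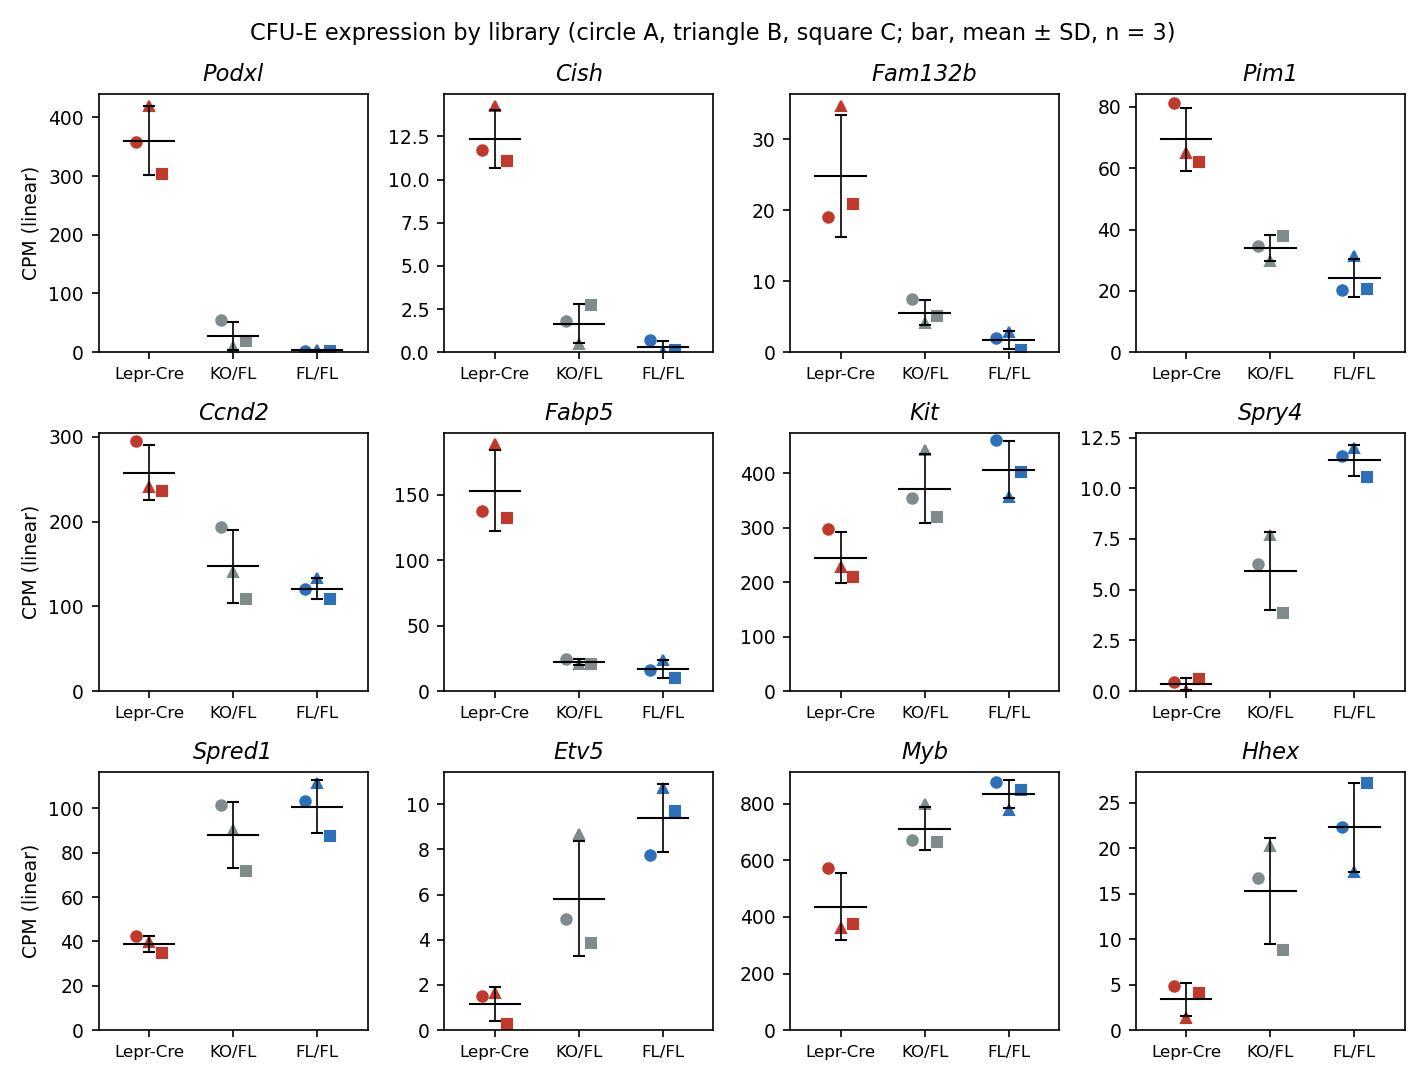
CPM of 12 genes in each CFU-E library (linear axes from 0), Lepr-Cre left, KO/FL middle and FL/FL right, with the mean and SD of 3 mice. In these genes, picked from the called ones, the Lepr-Cre libraries do not overlap the FL/FL libraries. Podxl stood at 303 to 419.7 CPM in Lepr-Cre and 1.94 to 4.50 CPM in FL/FL mice.

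The start of Cish is shown because it holds the letters of the STAT5 binding motif. RefSeq windows of GRCm38.p6, 250 bases before to 50 after a gene's start, were at hand for 8042 tested genes, and 3 of the 7 risen genes of the list had one: Cish, Pim1 and Fam132b, which RefSeq names Erfe. The motif TTCNNNGAA, which reads the same on both strands, was in the window of 1 of these 3, Cish, with matches that begin 0 and 11 bases after the RefSeq start. Counted by gene, any window of a gene sufficing, it was in 8.17% of the 8042 genes. The share was 12.3% of 171 called rises and 11.6% of 215 called falls with a window. It was also in 3 of 9 risen serine, folate and ATF4 genes with a window, so the match is not particular to the STAT5 list. The window of Cish lies at chr9:107296409-107296708 on the plus strand, with the matches in capitals.
Cish: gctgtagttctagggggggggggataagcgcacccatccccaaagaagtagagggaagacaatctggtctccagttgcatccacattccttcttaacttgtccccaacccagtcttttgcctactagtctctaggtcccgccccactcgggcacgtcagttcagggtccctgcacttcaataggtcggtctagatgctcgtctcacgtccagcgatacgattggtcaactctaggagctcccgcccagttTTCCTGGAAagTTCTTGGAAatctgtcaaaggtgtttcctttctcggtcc

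The 12 largest rises among called, separated genes of at least 5 CPM ran from C2cd4a down to Fabp5. C2cd4a, a gene for a C2-domain protein, had 143, 100 and 79 counts in Lepr-Cre, 7, 0 and 0 in KO/FL and 0, 0 and 0 in FL/FL libraries. Against a floor of 3 counts over the FL/FL group it was at least 111-fold higher (adjusted p = 0.000137). Fabp5, a fatty acid binding protein gene, had 138, 189 and 133 CPM in Lepr-Cre, 24.8, 20.5 and 21 CPM in KO/FL and 16.4, 24.1 and 10.4 CPM in FL/FL libraries (log2 fold change 3.17, SE 0.24, adjusted p = 1.57e-06). Both differ from KO/FL as well, with an adjusted p of 0.00266 for C2cd4a and 1.10e-05 for Fabp5. Between them came Podxl, Cish and Fam132b, already described, and Fam124a (6.28), Plek2 (5.08), a pleckstrin of the erythroblast cytoskeleton, Cdcp1 (4.36), a transmembrane substrate of SRC kinases, B3gnt7 (3.48), a glycosyltransferase, Cda (3.40), the cytidine deaminase of pyrimidine salvage, Gbp5 (3.34), an interferon-inducible GTPase, and App (3.27), the amyloid precursor. App had 24.8, 71.2 and 16.6 CPM in Lepr-Cre against 2.29, 5.77 and 3.28 CPM in FL/FL libraries. Gbp5 had 6.46, 19.8 and 4.36 CPM in Lepr-Cre against 0.88, 1.85 and 0.234 CPM in FL/FL libraries, and both genes were highest in Lepr-Cre B. The calls of some rested on single libraries. Cda did not pass without Lepr-Cre B, or FL/FL A or B (adjusted p up to 0.10), Gbp5 not without Lepr-Cre B, or FL/FL A (adjusted p up to 0.132), App not without FL/FL A, B or C (adjusted p up to 0.141) and Fam124a not without FL/FL A or C (adjusted p up to 0.0795).

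The 12 largest falls opened with Spry4 and held Etv5. Amigo2, a cell adhesion protein with leucine-rich repeats, had 3.4, 0 and 2.91 CPM in Lepr-Cre, 19.2, 30.9 and 22.3 CPM in KO/FL and 56.6, 32.5 and 32.7 CPM in FL/FL libraries (log2 fold change -4.21, SE 0.65, adjusted p = 0.00704). Its highest library was FL/FL A, and the groups did not overlap. Hhex, a homeobox factor of early blood progenitors, had 4.81, 1.35 and 4.07 CPM in Lepr-Cre, 16.7, 20.3 and 8.86 CPM in KO/FL and 22.3, 17.4 and 27.2 CPM in FL/FL libraries (log2 fold change -2.68, SE 0.40, adjusted p = 0.000342). Gnaq, the alpha subunit of the Gq protein, had 15.7, 3.75 and 9.02 CPM in Lepr-Cre, 31, 53.2 and 44.1 CPM in KO/FL and 80.7, 49.3 and 53.6 CPM in FL/FL libraries (log2 fold change -2.66, SE 0.42, adjusted p = 0.00609). In both genes the KO/FL and FL/FL ranges overlapped and Lepr-Cre lay below. The others were Pcdh7 (-3.16), a protocadherin, Fhdc1 (-3.14), a formin, Gp5 (-2.61), a platelet glycoprotein, Rasgef1c (-2.49), a RAS exchange factor, Trim2 (-2.40), a ubiquitin ligase, Ltbp1 (-2.35), which binds latent TGF-beta, and Mmd (-2.32). Ltbp1 did not pass without Lepr-Cre B, or FL/FL A (adjusted p up to 0.0744), nor Trim2 by limma on log2(RPKM + 1) (adjusted p = 0.0685).

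Of 24 erythroid transcription factors 1 rose and 2 fell, with a median of -0.13. Myb, a factor that sustains proliferation of progenitors (ENSMUSG00000019982.15, chromosome 10, 21124935 to 21160984, minus strand), had 571, 360.5 and 376 CPM in Lepr-Cre, 672, 799.9 and 664 CPM in KO/FL and 878, 779 and 847 CPM in FL/FL libraries (log2 fold change -0.94, SE 0.15, adjusted p = 0.000825). Each Lepr-Cre library was below each KO/FL and FL/FL library, and Lepr-Cre A was the highest of the 3. Mef2c, a MADS-box factor of lymphoid and megakaryocytic cells, had 31, 24.8 and 23.3 CPM in Lepr-Cre, 17.8, 9.79 and 11.3 CPM in KO/FL and 8.09, 6.46 and 4.1 CPM in FL/FL libraries (log2 fold change 2.10, SE 0.32, adjusted p = 0.000358), again without overlap between the 3 genotypes, but not by limma on log2(RPKM + 1) (adjusted p = 0.0589). Nfe2l2, the oxidative stress factor NRF2, fell by 0.40 on the log2 scale (adjusted p = 0.0394), but not without Lepr-Cre B or C, or FL/FL A or B (adjusted p up to 0.158). Gata2, a factor of early progenitors, had 31.3, 8.41 and 11.5 CPM in Lepr-Cre against 36.6, 32 and 37 CPM in FL/FL libraries, with Lepr-Cre A close to the controls, and was not called (-1.03, adjusted p = 0.124) except with the block (0.0321). The master regulators Gata1 (0.19, adjusted p = 0.485), Klf1 (0.12, 0.54) and Tal1 (0.32, 0.0639) were not called either. The block gave 3 rises and 4 falls, with Tal1 (adjusted p = 0.016) and E2f4 (0.0178) added as rises and Gata2 and Nfia (0.0476) as falls. Without Lepr-Cre B the list had 1 rise and 1 fall.

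Of 19 haem synthesis genes 1 rose, Cpox, which oxidises coproporphyrinogen, at 1033, 1104 and 992 CPM in Lepr-Cre against 666, 815 and 701 CPM in FL/FL libraries (log2 fold change 0.52, SE 0.10, adjusted p = 0.00487). All 4 tested globins lay above 0, with a median of 1.11, and 1 rose, the alpha globin Hba-a1, at 22.9, 35.4 and 44.8 CPM in Lepr-Cre against 15.1, 17.7 and 20.1 CPM in FL/FL libraries (log2 fold change 0.96, SE 0.26, adjusted p = 0.0329). The beta globins Hbb-bs and Hbb-bt lay at 1.33 and 1.26 (adjusted p = 0.314 and 0.161), with overlapping groups, and Hbb-bt was called higher with the block (0.0478), while the list had 0 calls without Lepr-Cre B. The near-identical copy Hba-a2 was not called (0.09), reads may be split between both, and Hba-a1 did not pass without Lepr-Cre B or C, or FL/FL A or B (adjusted p up to 0.163) or in the fit of all 18 libraries (0.145). Of 22 iron genes 1 rose, Fam132b, and the transferrin receptor Tfrc lay at 0.30 (adjusted p = 0.184) and the mitochondrial iron importer Slc25a37 at 0.75 (adjusted p = 0.0596). Of 29 red cell membrane genes 2 rose, Dmtn, which bundles actin in the membrane skeleton (0.82), and Tpm3, a tropomyosin (0.43), and without Lepr-Cre B the list had 0 rises and 1 fall. Dmtn did not pass without Lepr-Cre B or C, or FL/FL A or C (adjusted p up to 0.0982), nor Tpm3 without Lepr-Cre A or B, or FL/FL A or B (adjusted p up to 0.202). Of 30 late erythroblast genes 0 rose and 2 fell: Ctse, a protease of erythroblasts, averaged 356 ± 55.8 CPM in Lepr-Cre and 600.1 ± 27.2 CPM in FL/FL mice (log2 fold change -0.76, SE 0.11, adjusted p = 0.000325), and Optn, an autophagy receptor, 145 ± 9.85 CPM in Lepr-Cre and 214 ± 21.1 CPM in FL/FL mice (log2 fold change -0.56, SE 0.11, adjusted p = 0.00448). Without Lepr-Cre B the iron list had 1 rise and 1 fall, Aco1 (0.0485), an RNA-binding protein that senses iron. With the block the membrane list had 6 rises and 2 falls and the iron list 5 and 1. Among those it added were Tfrc (adjusted p = 0.0423), Slc25a37 (0.000626), beta spectrin, Sptb (0.0108), and the ammonium transporter Rhag (0.049) as rises, and the iron exporter Slc40a1 (0.0157) as a fall.

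**Figure D3:**
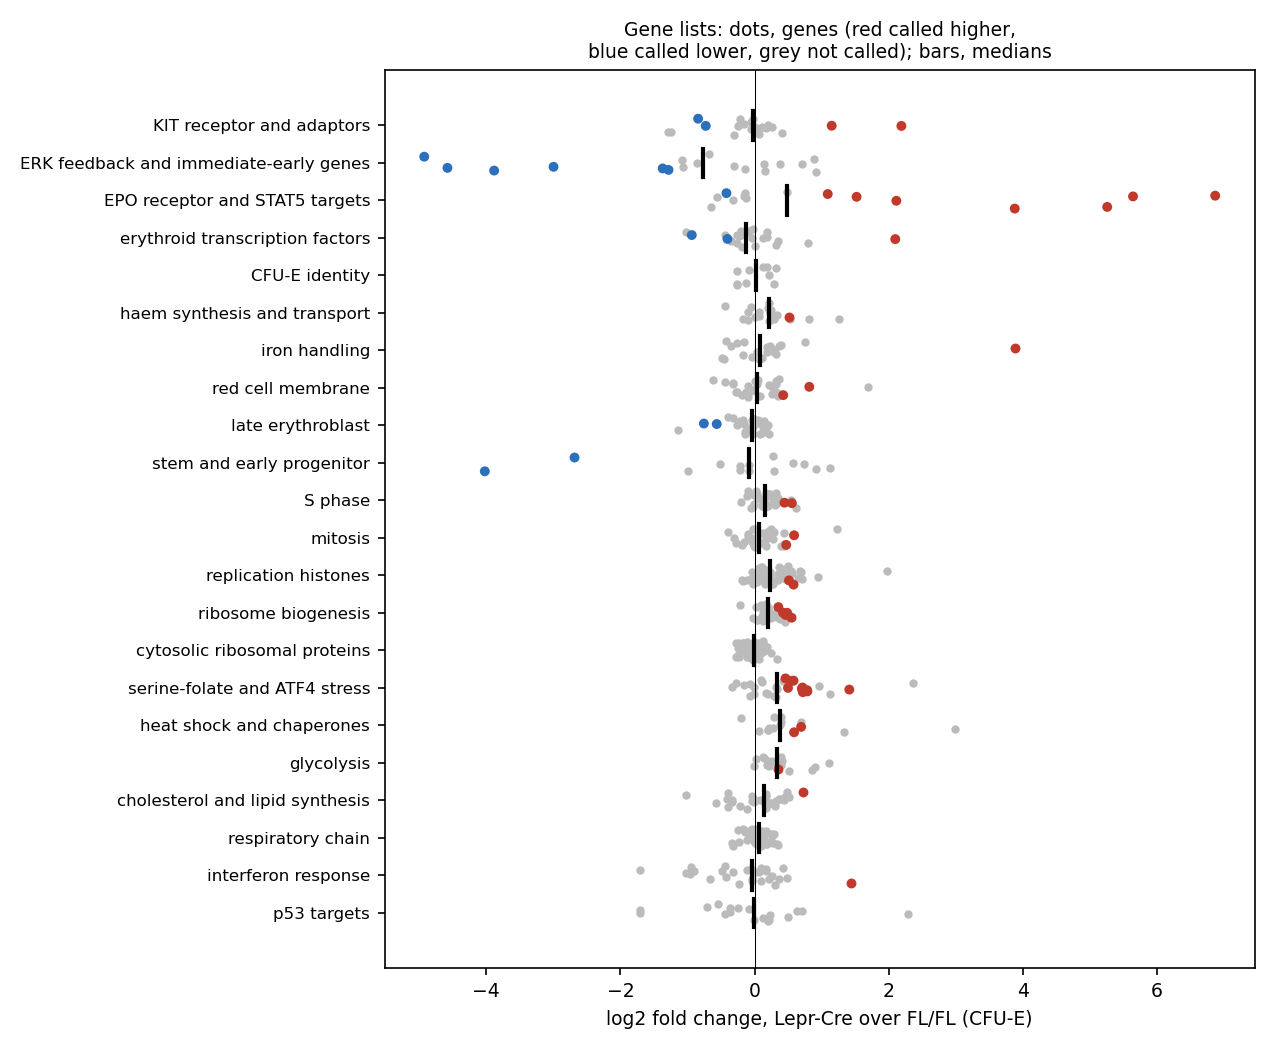
Log2 fold change of Lepr-Cre over FL/FL for each tested gene of 22 lists (dots, red called higher and blue called lower), with the median of each list as a black bar. The ERK list has 6 blue and 0 red dots, the erythropoietin and STAT5 list 7 red and 1 blue, and the serine, folate and ATF4 list 10 red and 0 blue.

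Of 29 tested genes of serine synthesis, folate, amino acids and the stress factor ATF4, 10 rose and 0 fell, with a median of 0.34. Among the 29, 22 lay above 0 and the lowest stood at -0.33. Lepr-Cre libraries lay wholly above the FL/FL libraries in 16 of them and wholly below in 1. Mthfd2, a mitochondrial enzyme of the folate cycle (ENSMUSG00000005667.8, chromosome 6, 83305691 to 83325908, minus strand), had 153, 141 and 117 CPM in Lepr-Cre, 84, 55.4 and 67.4 CPM in KO/FL and 42.9, 59.9 and 51.3 CPM in FL/FL libraries (log2 fold change 1.41, SE 0.17, adjusted p = 2.92e-05). The 3 enzymes that make serine all rose, Phgdh by 0.72, Psat1 by 0.79 and Psph by 0.78, as did Shmt2, which passes a carbon of serine to folate. Shmt2 had 358, 378 and 338 CPM in Lepr-Cre, 265, 232 and 255 CPM in KO/FL and 199, 229.6 and 226 CPM in FL/FL libraries (log2 fold change 0.71, SE 0.10, adjusted p = 0.000227). In both Mthfd2 and Shmt2 Lepr-Cre lay above the KO/FL and FL/FL libraries without overlap. The transporter gene Slc7a1, for arginine and lysine, averaged 283 ± 17.5 CPM in Lepr-Cre and 174 ± 5.06 CPM in FL/FL mice (adjusted p = 0.000527). Atf4 itself, at 259.5, 300.4 and 286 CPM in Lepr-Cre, 227, 199 and 240.2 CPM in KO/FL and 144, 212 and 208 CPM in FL/FL libraries, rose by 0.58 (adjusted p = 0.0101), with Lepr-Cre above both others. The neutral amino acid transporter Slc7a5 (0.56) and the tRNA synthetases Sars (0.50) and Aars (0.46) made up the 10. Without Lepr-Cre B the count was 6 rises and 0 falls, and with the block 13 and 0. Mthfd2, Shmt2, Psat1 and Slc7a1 passed whichever of the 6 libraries was left out. Phgdh did not pass without Lepr-Cre A or B, or FL/FL B (adjusted p up to 0.0904), Psph not without Lepr-Cre A, or FL/FL A, B or C (adjusted p up to 0.127), Atf4 not without Lepr-Cre B, or FL/FL A (adjusted p up to 0.0622), Slc7a5 not without Lepr-Cre B (adjusted p = 0.056), Sars not without FL/FL B (adjusted p = 0.0511) and Aars not without Lepr-Cre A or B, or FL/FL A or B (adjusted p up to 0.159).

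**Figure D4:**
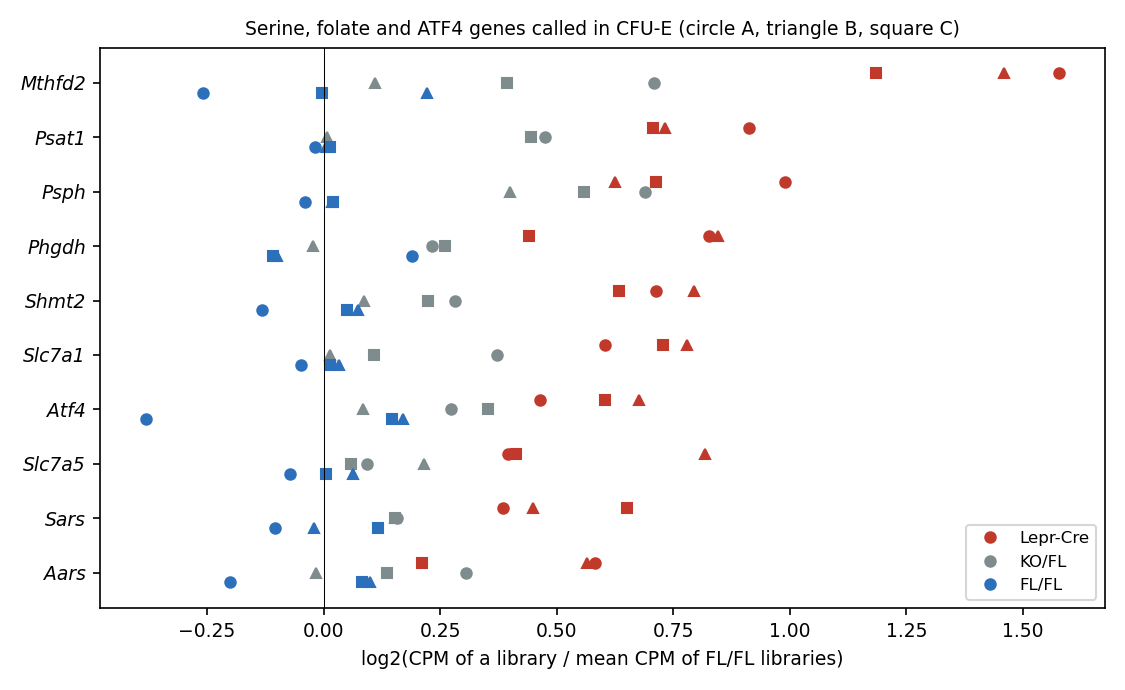
Log2 of each library's CPM over the mean of the FL/FL libraries for the 10 called serine, folate and ATF4 genes, with Lepr-Cre in red, KO/FL in grey and FL/FL in blue. Lepr-Cre libraries lie right of the FL/FL libraries in all 10 genes, which were picked as called rises. The Mthfd2 values stand apart the most, at 117 to 153 CPM in Lepr-Cre and 42.9 to 59.9 CPM in FL/FL mice.

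The window of Aars is shown for the letters TGATGNAA, the form of the amino acid response element, searched on both strands. Of the 10 risen genes 9 had a RefSeq window, and 1 of the 9, Aars, held the motif, with matches 112 bases before and 9 bases after the start. Counted by gene as above, it was in 2.62% of the 8042 genes with a window, in 4.68% of the called rises and in 3.72% of the called falls among them. The Aars window lies at chr8:111033592-111033891 on the plus strand of GRCm38.p6, with the matches, both on the other strand, in capitals.
Aars: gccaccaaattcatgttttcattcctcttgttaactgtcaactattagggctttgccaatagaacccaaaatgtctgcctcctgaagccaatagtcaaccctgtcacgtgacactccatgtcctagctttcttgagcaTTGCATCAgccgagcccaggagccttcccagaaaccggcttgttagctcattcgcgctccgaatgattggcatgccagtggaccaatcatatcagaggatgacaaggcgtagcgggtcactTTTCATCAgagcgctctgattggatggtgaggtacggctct

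Counts of growth and division genes are to be read against 2.08% of all tested genes called higher, and 4.31% with the block. Of 33 ribosome biogenesis genes 5 rose and 0 fell, and 31 of the 33 lay above 0, with a median of 0.20. The 5 were Bop1 (0.55), Nop2 (0.42), Rrs1 (0.46), Noc4l (0.49) and Noc2l (0.35), factors that process ribosomal RNA and assemble subunits in the nucleolus. Noc2l had 650.0, 693 and 658 CPM in Lepr-Cre, 525, 526 and 524 CPM in KO/FL and 498, 527 and 539.9 CPM in FL/FL libraries, with Lepr-Cre above both others. The count was 1 rise without Lepr-Cre B and 10 with the block, and each of the 5 lost its call without at least 1 library: Bop1 without FL/FL A (adjusted p = 0.069), Nop2 without Lepr-Cre B, or FL/FL A (adjusted p up to 0.0809), Rrs1 without Lepr-Cre A or B, or FL/FL A (adjusted p up to 0.149), Noc4l without Lepr-Cre A or B, or FL/FL A or B (adjusted p up to 0.203) and Noc2l without Lepr-Cre A, B or C, or FL/FL A or B (adjusted p up to 0.121). Myc, the factor that drives such genes, was not called (0.14, adjusted p = 0.58). Of 76 ribosomal protein genes edgeR called 0, with 1 at an unadjusted p under 0.05, 1 by DESeq2 and a median of -0.01. Of all 10192 tested genes 1973 were under that unadjusted p.

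Of 38 S-phase genes 2 rose, Rrm2, a subunit of ribonucleotide reductase, and Ccne1, the cyclin E1 gene, and 31 lay above 0. Rrm2 had 413, 436 and 474 CPM in Lepr-Cre, 358, 313 and 364 CPM in KO/FL and 260.0, 317 and 322 CPM in FL/FL libraries (log2 fold change 0.56, SE 0.11, adjusted p = 0.00433), with KO/FL overlapping FL/FL and Lepr-Cre above both, but it did not pass by limma on log2(RPKM + 1) (adjusted p = 0.0582). Ccne1 averaged 292 ± 17.5 CPM in Lepr-Cre and 215 ± 15.1 CPM in FL/FL mice (0.45, adjusted p = 0.0139) and did not pass without Lepr-Cre A or C, or FL/FL A (adjusted p up to 0.0713). Of 34 mitosis genes 2 rose, the cyclin B1 gene Ccnb1 (0.59) and the kinase Plk1 (0.47), and of 56 replication histones 2, Hist1h2ac (0.51) and Hist1h2bm (0.58). Both lists had 0 calls without Lepr-Cre B, and with the block 8 rises and 1 fall in mitosis, 9 rises in histones and 5 in S phase. Ccnb1 did not pass without Lepr-Cre B, or FL/FL A or B (adjusted p up to 0.12), Plk1 not without Lepr-Cre A or B, or FL/FL A or B (adjusted p up to 0.197), Hist1h2ac not without Lepr-Cre A, B or C, or FL/FL A or B (adjusted p up to 0.178) and Hist1h2bm not without Lepr-Cre A, B or C, or FL/FL A or B (adjusted p up to 0.217). Total RNA was read, so histone transcripts without a poly(A) tail were included, and close histone copies may share reads.

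The mitochondrial chaperones Hspd1 and Hspe1, which fold proteins as partners, were the 2 rises among 15 heat shock genes, whose median was 0.38. Hspd1 had 1581, 1354 and 1403 CPM in Lepr-Cre, 1330.0, 1045 and 1051 CPM in KO/FL and 814, 1042 and 1029 CPM in FL/FL libraries (log2 fold change 0.59, SE 0.12, adjusted p = 0.00627), and by limma on log2(RPKM + 1) it did not pass (adjusted p = 0.0719). Its partner Hspe1 (0.69) did not pass without Lepr-Cre A, B or C, or FL/FL A or B (adjusted p up to 0.188). The block gave 5 rises, with the cytosolic chaperones Hsph1 (adjusted p = 1.51e-05), Hspa8 (0.00716) and Hsp90aa1 (0.0186) added. Of 19 glycolysis genes 1 was called, the lactate transporter Slc16a1 (0.36, adjusted p = 0.0498), which did not pass without Lepr-Cre A or B, or FL/FL A, B or C (adjusted p up to 0.193), and 18 lay above 0. The block raised that count to 3, with Ldha of lactate production (adjusted p = 0.00419) and Gapdh (0.031). Of 29 cholesterol and lipid genes 1 rose, the sterol carrier Stard4 (0.72), which did not pass without Lepr-Cre B or C, or FL/FL A or B (adjusted p up to 0.149), and with the block the list had 2 rises. The counts at an unadjusted p under 0.05 that follow stand beside 1973 of all 10192 tested genes. Of 46 respiratory chain genes edgeR and DESeq2 each called 0, with 3 at an unadjusted p under 0.05 and a median of 0.06. Of 19 p53 targets both called 0, with 2 at an unadjusted p under 0.05 and a median of -0.01. Of 12 glucocorticoid and self-renewal genes both called 0, with 3 at an unadjusted p under 0.05 and a median of -0.23, and with the block 2 were called lower, the glucocorticoid receptor Nr3c1 (0.0478) and the mRNA decay factor Zfp36l1 (0.0340). Of 12 BCL2 family genes 1 fell, Bcl2l11, which encodes the death activator BIM and is repressed by ERK in other cells, at 50.9, 45.1 and 34.8 CPM in Lepr-Cre against 70.7, 77.8 and 60.4 CPM in FL/FL libraries (log2 fold change -0.67, SE 0.18, adjusted p = 0.0313). It did not pass without Lepr-Cre B or C, or FL/FL A or B (adjusted p up to 0.159).

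Surface receptors other than KIT changed one by one. Ptger3, a receptor of prostaglandin E2, had 39.9, 59.6 and 42.8 CPM in Lepr-Cre, 16.8, 12.6 and 15.9 CPM in KO/FL and 11.8, 8.65 and 6.79 CPM in FL/FL libraries (log2 fold change 2.40, SE 0.26, adjusted p = 9.28e-06), and the 3 genotypes did not overlap. Ifngr1, a chain of the interferon gamma receptor, averaged 145 ± 8.34 CPM in Lepr-Cre and 219.9 ± 38.9 CPM in FL/FL mice (log2 fold change -0.61, SE 0.12, adjusted p = 0.00482). Igf1r, the receptor of insulin-like growth factor 1, fell by 0.65 on the log2 scale (adjusted p = 0.0192), but not without Lepr-Cre A or C, or FL/FL A or B (adjusted p up to 0.113). These were the calls among 15 receptors, whose median was -0.30. Of 14 adhesion and homing genes Podxl rose, which the erythropoietin and STAT5 list also counts. The integrin chains Itga5 and Itga4, which bind fibronectin and VCAM1, fell. Itga5 had 89.1, 83.5 and 89.8 CPM in Lepr-Cre, 118, 132 and 109 CPM in KO/FL and 158, 149 and 144 CPM in FL/FL libraries (log2 fold change -0.78, SE 0.12, adjusted p = 0.000398), with the 3 genotypes in separate ranges. Itga4 averaged 542 ± 13 CPM in Lepr-Cre and 721 ± 39.6 CPM in FL/FL mice (-0.41, adjusted p = 0.0259) and did not pass without Lepr-Cre A or B, or FL/FL A or B (adjusted p up to 0.114). The adhesion list had 1 rise and 1 fall without Lepr-Cre B. Of 28 interferon response genes 1 rose, Ifitm3, a membrane protein that blocks virus entry, at 17.1, 44.6 and 18 CPM in Lepr-Cre against 7.56, 9.69 and 11.8 CPM in FL/FL libraries (log2 fold change 1.44, SE 0.34, adjusted p = 0.0133). Lepr-Cre B was its highest library, and it did not pass without Lepr-Cre B, or FL/FL A or B (adjusted p up to 0.143). Without Lepr-Cre B the list had 0 rises and 1 fall, the interferon factor Irf7 (0.0272), and with the block 1 rise and 2 falls.

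Of 14 stem and early progenitor genes 0 rose and 2 fell, Hhex and Mn1, a transcription cofactor. Mn1 had 6, 0 and 3 counts in Lepr-Cre, 24, 26 and 17 in KO/FL and 82, 20 and 30 in FL/FL libraries (log2 fold change -4.02, SE 0.93, adjusted p = 0.0129), with FL/FL A the highest, and it did not pass without FL/FL A (adjusted p = 0.232). The mucin Muc13 was called higher without Lepr-Cre B (0.0320) and with the block (0.0415), which gave 1 rise and 2 falls in each case. Of 9 megakaryocyte genes 1 fell, Gp5, and their 18 listed markers summed to 55.8 to 77.5 CPM in Lepr-Cre and 70.2 to 81.3 CPM in FL/FL libraries, with Gp1bb, Gp6, Ppbp, Treml1, Clec1b and Thbs1 among those at 0 in both. Endothelial markers summed to 8.29 to 13.5 CPM in Lepr-Cre and 26.4 to 37.1 CPM in FL/FL libraries, with Cdh5 and Tie1 at 0 in both. Most of the FL/FL sum was Plvap, a fenestral diaphragm protein of endothelium, at 9.27, 9.31 and 3.78 CPM in Lepr-Cre, 15.2, 25.9 and 18.3 CPM in KO/FL and 25.3, 24.9 and 31.1 CPM in FL/FL libraries (log2 fold change -1.86, SE 0.32, adjusted p = 0.00102). Pecam1 (48 counts in Lepr-Cre, 39 in FL/FL) and Egfl7 (21 and 44) were not called. B cell markers summed to 26.2, 14.3 and 2.33 CPM in Lepr-Cre A, B and C and to 0.351 to 3.52 CPM in FL/FL libraries, with Rag1 at 0 in both groups and 7 of 11 at 0 in FL/FL mice. Dntt, the terminal transferase of lymphoid progenitors, had 87, 32 and 2 counts in Lepr-Cre and 2, 1 and 0 in FL/FL libraries, a ratio of 41.9 with a counting interval of 14 to 206. It was called (adjusted p = 0.0219) although Lepr-Cre C overlapped the controls, and did not pass without FL/FL A, B or C (adjusted p up to 0.115). Without Lepr-Cre A, which held 87 of its counts, it fell below the filter on low counts and was not tested, as in the fits of 6 and of 18 libraries. Stromal markers summed to 4.95 to 9.16 CPM in Lepr-Cre and 1.05 to 3.17 CPM in FL/FL libraries, with Kitl, Col3a1 and Bglap at 0 in both. Lpl had 52 counts in Lepr-Cre and 19 in FL/FL libraries, Col1a1 38 and 1, Col1a2 33 and 10, and Lepr 27 and 3. Adipoq (0 and 4), Ebf3 (0 and 3), Pdgfra (0 and 3) and Sparc (0 and 1) went the other way. Lpl and Col1a2 were tested and not called. Neutrophil and monocyte markers summed to 2.04 to 5.63 CPM in Lepr-Cre and 1.73 to 2.64 CPM in FL/FL libraries, with Elane, Ctsg and S100a8 at 0 in both. Spi1 had 33 counts in Lepr-Cre and 3 in FL/FL libraries, and Prtn3 33 and 16. Csf3r (0 and 6), Lyz2 (0 and 4), Ngp (2 and 7) and Cebpa (4 and 7) went the other way. Macrophage markers summed to 23 to 29.6 CPM in Lepr-Cre and 22.7 to 31.0 CPM in FL/FL libraries. Most of both sums was Apoe, with 475 counts in Lepr-Cre and 511 in FL/FL libraries, while C1qb, C1qc, Siglec1 and Mertk were at 0 in both. Mast cell and granulocyte markers summed to 0.704 to 2.55 CPM in Lepr-Cre and 1.15 to 4.05 CPM in FL/FL libraries. T and NK cell markers summed to 1.60 to 3.91 CPM in Lepr-Cre and 0.528 to 2.42 CPM in FL/FL libraries. The part of such cells in the called differences was not tested.

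KO/FL mice differ from Lepr-Cre mice by the added Cre and from FL/FL mice by the null copy, and both comparisons share libraries with the one above. Against KO/FL mice edgeR called 103 genes in Lepr-Cre CFU-E (1.01%), 30 higher (0.294%) and 73 lower (0.716%). The block gave 280, of which 112 were higher and 168 lower. By limma on log2(RPKM + 1) the count was 29, with 15 higher and 14 lower (51.7% higher, against 29.1%). Of the genes described, Fabp5 (log2 fold change 2.79, adjusted p = 1.10e-05), Spred1 (-1.18, 0.000356), Spry4 (-3.99, 0.00271), Mthfd2 (0.99, 0.00305), Pim1 (1.03, 0.0124), Myb (-0.71, 0.0227) and Kit (-0.60, 0.0486) passed there. Gab2 (1.13, 0.0778) and Mef2c (1.02, 0.119) did not. Without KO/FL B the count was 19, without KO/FL C 54 and without Lepr-Cre B 52. Between KO/FL and FL/FL CFU-E edgeR called 0 of 10192 genes, with 210 at an unadjusted p under 0.05, 1 by DESeq2 and 2 without the filter on low counts.

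The Lepr-Cre libraries were also set one at a time against the mean of the KO/FL libraries, for the genes called when that library was left out. Of 116 rises called without Lepr-Cre A, 113 were above the KO/FL mean in Lepr-Cre A, and of 224 falls 214 were below it. For Lepr-Cre B these were 117 of 124 rises and 199 of 223 falls, and for Lepr-Cre C 152 of 174 and 238 of 271. Over all tested genes the share above the KO/FL mean was 51.1% in Lepr-Cre A, 49.6% in B and 50.2% in C. The share below it was 48.9% in Lepr-Cre A, 50.4% in B and 49.8% in C. KO/FL libraries entered the filter, scaling and spread of the fits that chose the genes. Genes of the same mouse are not separate replicates, so these counts describe each library and test nothing.

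Lepr-Cre against FL/FL was set beside the same contrast in PreCFU-E, the stage before CFU-E, of the same mice, and the difference between the stages was tested as an interaction on 18 libraries. It was called for 38 of 10732 genes (0.354%), 15 with a more positive (0.14%) and 23 with a more negative difference in CFU-E (0.214%), and for 198 with the mouse as a block. Without FL/FL B it was called for 13, without Lepr-Cre A for 21 and without Lepr-Cre C for 23. Sptb, beta spectrin of the red cell membrane skeleton, had 854, 1138 and 839.6 CPM in Lepr-Cre and 771, 863 and 562 CPM in FL/FL CFU-E, where the groups overlapped, and 409.8, 443 and 382 CPM in Lepr-Cre and 86.7, 72.4 and 63.6 CPM in FL/FL PreCFU-E (interaction -2.12, SE 0.23, adjusted p = 5.47e-05). Add2, the beta adducin gene of the same skeleton, likewise differed in PreCFU-E (0.88) and lay at 0.07 in CFU-E (interaction adjusted p = 0.00236). Cnn3, a calponin that binds actin, went the other way, at 15.4, 11.6 and 11.1 CPM in Lepr-Cre and 48.2, 44.8 and 64.4 CPM in FL/FL CFU-E, against 12.2, 8.63 and 9.5 CPM in Lepr-Cre and 8.48, 7.69 and 8.56 CPM in FL/FL PreCFU-E (interaction -2.35, adjusted p = 0.000311). Mef2c rose in CFU-E (2.09) and lay at 0.23 in PreCFU-E (interaction adjusted p = 0.00236). In PreCFU-E 3.05% of the 10732 genes were higher and 2.47% lower. Of the red cell membrane list 10 of 30 genes were higher and 0 lower in PreCFU-E, where the fit of CFU-E alone had 2 of 29 higher and 0 lower, and 3 members had a called interaction. The ERK and the erythropoietin lists had 0 called interactions, the first with 8 falls and 0 rises in PreCFU-E and the second with 7 rises and 3 falls.

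**Figure D5:**
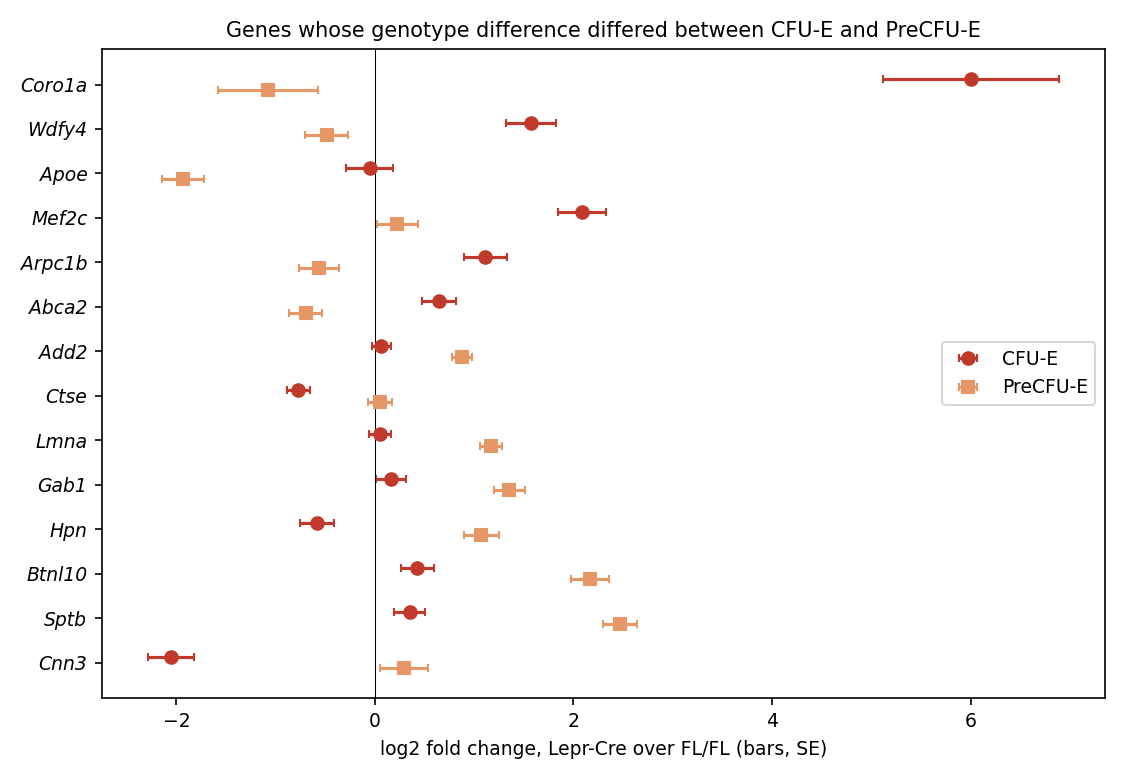
Log2 fold change of Lepr-Cre over FL/FL in CFU-E (circles) and PreCFU-E (squares), with SE bars, for 14 genes with a called difference between the stages, ordered by that difference. Sptb, Btnl10, Gab1 and Lmna lie at 0.05 to 0.43 in CFU-E and at 1.17 to 2.47 in PreCFU-E, and Coro1a, Wdfy4 and Arpc1b are positive in CFU-E and negative in PreCFU-E.

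Genes that change between the stages in KO/FL mice, which carry the null copy, were followed last. The KO/FL CFU-E libraries are on neither side of Lepr-Cre against FL/FL, but they entered its filter, scaling and spread in the 9-library fit. In KO/FL mice 692 of 9992 genes were higher (6.93%) and 794 lower (7.95%) in CFU-E than in PreCFU-E, 14.9% in all. That fit did not pair the stages of a mouse. With the mouse as a block 2364 genes were called, so the genes without a call below include some that the block calls. Of the 692, 28 were higher (4.05%) and 59 lower (8.53%) in Lepr-Cre than in FL/FL CFU-E. Of the 730 step-lowered genes tested in both, 25 were higher (3.42%) and 53 lower (7.26%). The 8417 genes without a call in the step had 149 higher (1.77%) and 164 lower (1.95%). The median log2 fold change was -0.02 in the genes higher in CFU-E, 0.00 in those lower and 0.00 in the rest.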

How the data were processed

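RNA of sorted CFU-E and PreCFU-E was sequenced from 3 mice per genotype. The authors deposited 1 table of counts and 1 of RPKM per gene for all 18 libraries. Per the submitters' processing notes, STAR 2.5.2b and HTSeq on mm10 were used. No source used here gives the HTSeq version, annotation or strand setting, so overlapping and antisense genes are uncertain. Per the labels' protocols, cells were sorted from c-Kit-enriched marrow. A heading there speaks of nuclei, but the steps describe RNA of whole sorted cells with RIN of at least 9.4.

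Counts were fitted with edgeR 4.0.16 in R 4.3.3 (filterByExpr with a minimum count of 10 and total of 15, TMM, robust quasi-likelihood test, Benjamini-Hochberg threshold 0.05), on the 9 CFU-E libraries for genotype and on 18 libraries and 6 groups for the difference between stages. CPM use TMM-scaled totals. The RPKM that the authors deposited entered as alternatives in limma 3.58.1, and DESeq2 1.42.0 was another. Floors of 3 counts (0.334 to 0.528 CPM) and counting intervals (95%, exact binomial) cover counting error only. The table held 21967 genes, 6306 without a count in CFU-E, and 0 columns without a sample.

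The main fits held the group only, so their calls are not paired. The letters A, B and C were taken to pair mice in the block alone, since libraries of one letter deviated together (r across genes 0.104 to 0.132, against -0.0841 to -0.0238 for different letters). Deviations were taken from each group's mean, so values for the same letter and for different letters are not independent. The letters also follow sex. The meaning of the letters is otherwise not given.

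Named were Kit, Kitl, the 12 largest rises and falls of at least 5 CPM with called, separated groups, up to 4 genes of each list by smallest p, the erythroid factors called, and the 5 smallest p in each direction of the stage difference. That gave 158 genes, and 38 others were chosen after their values were seen. Members and the 38 gene lists were chosen with earlier results of these data known, and 9 list symbols were not in the table. Sex as a covariate and list counts without Lepr-Cre B were added after seeing the data. Gene positions are from GENCODE M21 (GRCm38), with 9659 of 10192 symbols matched, and promoter windows from RefSeq. Lists, intervals, motif searches and figures were made in Python 3.11.15 with pandas 2.3.3, scipy 1.17.1 and matplotlib 3.10.9. Only the edgeR fit in R was checked on simulated counts. Some list members are not reported here.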

Additional observations from a re-analysis of the deposited data

Results flagged for a closer look

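For 14 named genes the Lepr-Cre against FL/FL difference in CFU-E differed from that in PreCFU-E by an interaction test, and each value here is the log2 fold change in CFU-E minus that in PreCFU-E, with an adjusted p from edgeR over 10732 genes. Genes more positive in CFU-E were Coro1a, an actin regulator of leukocytes (7.08, adjusted p = 0.000342), Wdfy4 of antigen-presenting cells (2.05, 0.00159), Apoe, the lipid carrier (1.88, 0.00781), Mef2c (1.86, 0.00236), Arpc1b of the ARP2/3 actin complex (1.67, 0.00335) and the transporter gene Abca2 (1.35, 0.00292). Genes more negative in CFU-E were the calponin gene Cnn3 (-2.35, 0.000311), Sptb (-2.12, 5.47e-05), the butyrophilin-like gene Btnl10 (-1.74, 0.000311), the protease gene Hpn (-1.66, 0.000342), the adaptor Gab1 (-1.19, 0.0035), the lamin gene Lmna (-1.12, 0.000311), Ctse (-0.82, 0.0154) and Add2 (-0.81, 0.00236). Coro1a had 55, 18 and 16 counts in Lepr-Cre and 0, 0 and 1 in FL/FL CFU-E, so its fitted value depends on the prior count. Abca2 and Arpc1b did not pass without FL/FL B (adjusted p = 0.0628 and 0.069).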

How the results depend on the processing

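No called value of a named gene changed sign under the alternatives run, and 47 of 102 such values were called under every one of them. The 492 called genes of Lepr-Cre against FL/FL became 499 with RLE size factors, 404 on 6 libraries, 583 on 18 libraries and 503 with sex as a covariate. DESeq2 called 755, the fit without a filter on low counts 751, the replicate block 933, limma on log2(RPKM + 1) 184 and on log2(RPKM + 0.1) 194. Leaving out 1 library gave 221 to 610 genes, lowest without FL/FL A and highest without FL/FL C. For Lepr-Cre against KO/FL, 103 genes became 229 with DESeq2, 244 without the filter, 280 with the replicate block, 29 with log2(RPKM + 1) and 20 with log2(RPKM + 0.1), and 19 to 101 with 1 library left out. For KO/FL against FL/FL, 0 became 1 with DESeq2, 2 without the filter and 0 to 1 with 1 library left out. The 38 genes with a stage difference became 140 without the filter, 198 with the mouse as replicate block and 102 with DESeq2, and 13 to 43 with 1 library left out. The stage step in KO/FL mice had 1486 genes and 2364 with the mouse as replicate block. Among the named calls, 59 of 102 held without FL/FL A, 64 without FL/FL B and 69 without Lepr-Cre B, and the fewer samples of such fits are part of that. The replicate block was a fit on letters that also follow sex, and of 93 named calls in CFU-E it kept 93. Limma on log2(RPKM + 1) kept 47 of the 93. Counts under about 100 in a group, as in Dusp6, Ccnd1 and Mn1, limit the size given for those genes.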

Other observations

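Among the called genes, 16 had at most 3 counts in all libraries of one genotype, and their folds are bounds or ratios on counts. Aox4, an aldehyde oxidase gene, had 0, 0 and 0 counts in Lepr-Cre and 33, 54 and 30 in FL/FL CFU-E, at least 37.6-fold lower against a floor of 3 counts over the Lepr-Cre group. Adam22, of the ADAM family of membrane proteins, had 0, 0 and 0 counts in Lepr-Cre and 20, 20 and 27 in FL/FL CFU-E, at least 21.5-fold lower. Eps8l1, related to the actin regulator EPS8, had 0, 1 and 0 counts in Lepr-Cre and 50, 47 and 65 in FL/FL CFU-E, an FL/FL over Lepr-Cre ratio of 156 with a counting interval of 27.6 to 6201. Coro1a, the leukocyte coronin, had 55, 18 and 16 counts in Lepr-Cre and 0, 0 and 1 in FL/FL CFU-E, a ratio of 92.4 with a counting interval of 16.2 to 3690. In these 4 genes, as in 486 of the 492 called genes, the Lepr-Cre and FL/FL libraries did not overlap.

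Itga9, an integrin chain looked up after its values were seen, had 4.23, 3.6 and 2.76 CPM in Lepr-Cre, 6.24, 5.01 and 5.0 CPM in KO/FL and 6.51, 816 and 5.38 CPM in FL/FL libraries. FL/FL B alone held 7073 counts of it, and the gene was not called (adjusted p = 0.20).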
